A study of Homo sapiens with 18 samples.

Results

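The EGF receptor family and its ligands were followed at the RNA level in cultures of MCF10A and HCT116 cells, grown alone or mixed, with and without ionising radiation. The members were the rows of the deposited count tables whose symbol was EGFR, ERBB2 or ERBB3, the receptors, or AREG, EREG, HBEGF, TGFA, EPGN, BTC or EGF, the ligands. They were 10 of the 40916 symbols listed in each table, and all 10 passed the filter on low counts in every comparison. MCF10A is a non-transformed human mammary epithelial line. It carried a reporter of histone H2B fused to green fluorescent protein and was grown with 5% horse serum, EGF protein at 20 ng/mL, cholera toxin at 100 ng/mL, hydrocortisone and insulin. HCT116 is a human colorectal carcinoma line, here without the reporter and described as p53-null, and was grown in McCoy's 5A with 10% fetal bovine serum. Mixed cultures were described as 50% of each line, and their medium is not stated in the sources used here. Cultures of each kind received either no irradiation (NIR) or 10 Gy (IR), with 3 biological replicates in each of the 6 groups. The series text places the harvest 72 hours after irradiation, and the sample titles place it at day 2. Line and medium differed together in the monocultures, so their parts in a difference between the lines cannot be told apart.

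EGFR, ERBB2 and ERBB3 are receptor tyrosine kinases that signal as dimers. The 7 ligands are made as membrane-anchored precursors, are released by proteases of the ADAM family, and bind EGFR, with HBEGF, EREG and BTC also binding ERBB4. ERBB2 has no known ligand of its own, and ERBB3, whose kinase activity is weak, binds neuregulins. Downstream, the RAS-ERK cascade switches on genes for feedback inhibitors such as the sprouty proteins and dual-specificity phosphatases. Amphiregulin, the product of AREG, drives duct growth in the mammary gland, and MCF10A is routinely kept in medium with EGF. In colorectal cancer, high AREG and EREG levels are known as markers of tumours that depend on EGFR.

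In GENCODE v29 on GRCh38, 4 of the 7 ligand genes lie next to each other on chromosome 4, with no other protein-coding gene in the 486.2 kb that they span. EPGN lies at chr4:74308473-74315307, EREG at chr4:74365143-74388751 and AREG at chr4:74445134-74455009, all on the plus strand. BTC follows on the minus strand at chr4:74744759-74794686. The gaps between neighbours were 49.8, 56.4 and 289.8 kb in this order. EGF lies on the same chromosome at chr4:109912884-110012266. HBEGF lies at chr5:140332843-140346631 and TGFA at chr2:70447280-70554193, both on the minus strand. EGFR lies at chr7:55019021-55211628 and overlaps the antisense gene EGFR-AS1, ERBB2 at chr17:39687914-39730426 with overlap to MIEN1 and PGAP3, and ERBB3 at chr12:56076799-56103505. Although the library kit keeps strand, the strand setting of the counting is not given in the sources used here, so reads of EGFR and ERBB2 and of these overlapping genes may be mixed. ERBB3 overlaps AC034102.2 on the same strand, so strand cannot tell their reads apart. EGFR-AS1 was counted at 2.01 ± 0.471 CPM in MCF10A NIR (SD, n = 3) and 0.736 ± 0.0661 CPM in HCT116 NIR, where CPM is counts per 1000000 counts of a library.

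The proximal promoters of the 3 neighbouring ligands EPGN, EREG and AREG are shown because these adjacent genes differed between the lines in different directions, and that of HBEGF because it had the highest fold change after irradiation of the members in both monocultures. The sequences are those just before the RefSeq start on GRCh38.p14, read 5′ to 3′ on the strand of the gene, and bases inside the gene as GENCODE v29 places it were left off. Capitals mark TATAAA, the letters of a minimal core promoter box, TGACGTCA, the cAMP response element, and the GC box, which reads GGGCGG on either strand.
EPGN, chr4:74308320-74308469, plus strand: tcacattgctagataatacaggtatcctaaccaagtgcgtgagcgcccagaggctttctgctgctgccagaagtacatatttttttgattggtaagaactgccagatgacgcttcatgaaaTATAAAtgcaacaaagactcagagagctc
EREG, chr4:74364995-74365142, plus strand: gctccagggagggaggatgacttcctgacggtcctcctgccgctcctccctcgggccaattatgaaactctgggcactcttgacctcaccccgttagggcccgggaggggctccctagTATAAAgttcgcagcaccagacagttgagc
AREG, chr4:74444986-74445133, plus strand: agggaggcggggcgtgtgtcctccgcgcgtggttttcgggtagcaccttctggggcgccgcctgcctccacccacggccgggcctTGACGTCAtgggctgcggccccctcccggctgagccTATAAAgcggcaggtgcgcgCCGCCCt
HBEGF, chr5:140346632-140346753, minus strand: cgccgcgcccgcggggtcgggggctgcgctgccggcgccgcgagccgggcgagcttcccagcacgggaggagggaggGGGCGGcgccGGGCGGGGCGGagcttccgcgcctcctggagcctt
TATAAA began 29 bases before the RefSeq start in EPGN and AREG and 32 bases before it in EREG, and TGACGTCA began 65 bases before it in AREG. In HBEGF, GGGCGG began 73, 63 and 58 bases before the start, and the last 2 matches overlap by 1 base. A GC box on the opposite strand began 9 bases before the start of AREG. On both strands of the 250 bases before each RefSeq start, TATAAA was present in 10.7% of 35116 windows from 27305 genes, TGACGTCA in 1.65%, GGGCGG in 42.6% and the AP-1 letters TGACTCA in 4.20%. The core TGACG, also counted inside TGACGTCA, was present in 21.2%, among them the windows of EPGN, EREG, AREG and TGFA. These matches describe letters only. ERBB3 had no entry in the RefSeq promoter table, and the other 9 members matched by symbol.

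The libraries held 25.7 to 40.8 M counts, with M standing for 1000000. Basal mammary genes, 10 in the list, were higher in MCF10A NIR for 9. Their summed levels were 10058 to 10974 CPM against 871 to 1016 CPM in HCT116 NIR, where TP63 and TGFBI had no counts. Most of the HCT116 sum was ITGB4 (477.0 CPM), CAV1 (285.6 CPM) and CDH3 (196.3 CPM). Of 10 intestinal genes, 7 were higher in HCT116 NIR, but CDX1, CEACAM5 and ASCL2 had no counts there, and the summed level was only 47.3 to 55.1 CPM against 16.2 to 19.7 CPM in MCF10A NIR. Mitochondrially encoded genes took 5.10% to 6.35% of counts in MCF10A, 8.42% to 12.3% in HCT116 and 8.37% to 12.7% in mixed libraries. CDKN1A and MDM2, genes known to be induced by DNA damage, rose after irradiation in MCF10A, by 1.76 and 0.98 on the log2 scale, and in HCT116, by 2.33 and 1.41. In the mixed libraries, genes specific to MCF10A put its share of RNA at 0.447% ± 0.0528 (SD, n = 3) in NIR and 1.24% ± 0.0662 in IR, far from the 50% of the description, so these libraries held mostly HCT116 RNA. In such bulk RNA, fewer cells of a type and less RNA per cell cannot be told apart.

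The receptors were distributed in opposite ways over the lines. Without irradiation, MCF10A carried mainly EGFR, and HCT116 carried more ERBB3 and ERBB2. EGFR was at 750.4, 694.7 and 745.6 CPM in the 3 MCF10A NIR libraries and at 160.6, 180.1 and 180.4 CPM in HCT116 NIR. The groups did not overlap, and the mean of MCF10A was 4.20-fold that of HCT116 (log2 fold change of HCT116 over MCF10A -2.27, SE 0.060, adjusted p = 3.9e-16, edgeR quasi-likelihood test). ERBB3 was at 9.12, 9.72 and 10.9 CPM in MCF10A NIR and at 72.5, 70.5 and 66.1 CPM in HCT116 NIR. All HCT116 libraries stood above all MCF10A libraries, with a 7.03-fold ratio of the means (log2 fold change 2.62, SE 0.087, adjusted p = 1.1e-14). ERBB2 differed less, at 47.6, 44.9 and 48.3 CPM in MCF10A NIR and at 78.2, 67.8 and 73.4 CPM in HCT116 NIR (log2 fold change 0.44, SE 0.069, adjusted p = 1.6e-05). Fitted values between the lines use edgeR's TMM scaling, under which the ratio of CPM means of 1.56 for ERBB2 becomes this smaller difference.

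The ligands split by line as well, with AREG, EPGN, HBEGF and TGFA higher in MCF10A and EREG, BTC and EGF higher in HCT116. AREG was at 1021, 1121 and 1118 CPM in MCF10A NIR and at 337.8, 317.3 and 356.7 CPM in HCT116 NIR (log2 fold change of HCT116 over MCF10A -1.89, SE 0.060, adjusted p = 6.0e-15). EREG, which encodes epiregulin, showed the reverse, with 220.9, 203.5 and 227.1 CPM in MCF10A NIR and 957.2, 942.4 and 891.0 CPM in HCT116 NIR (log2 fold change 1.90, SE 0.053, adjusted p = 1.0e-15). Neither of these neighbouring genes had overlapping groups. EPGN, the gene for epigen and the next gene before EREG, was at 173.3, 188.9 and 174.1 CPM in MCF10A NIR. In HCT116 NIR it was at 1.24, 1.15 and 0.94 CPM, from 26 to 43 counts per library, so that the mean of MCF10A was 160.8-fold higher (log2 fold change -7.51, SE 0.098, adjusted p = 3.4e-20).

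The other ligands differed less, apart from EGF. HBEGF, the heparin-binding ligand, was at 25.5, 26.7 and 22.4 CPM in MCF10A NIR and at 8.62, 8.27 and 8.33 CPM in HCT116 NIR (log2 fold change -1.77, SE 0.111, adjusted p = 8.5e-11). TGFA, which encodes transforming growth factor alpha, was at 142.8, 133.0 and 145.0 CPM against 99.0, 109.8 and 107.3 CPM (log2 fold change -0.61, SE 0.059, adjusted p = 3.4e-08). Both had separate groups. EGF was at 0.24, 0.34 and 0.27 CPM in MCF10A NIR, from 8 to 12 counts per library, and at 3.47, 2.18 and 2.90 CPM in HCT116 NIR (log2 fold change 3.12, SE 0.389, adjusted p = 1.1e-06). Its level in MCF10A does not include the EGF protein of the medium, which RNA counts cannot see. BTC, the gene for betacellulin, was at 5.38, 4.73 and 4.71 CPM in MCF10A NIR and at 5.67, 8.39 and 9.27 CPM in HCT116 NIR (log2 fold change 0.45, SE 0.193, adjusted p = 0.043). This BTC call was lost without MCF10A NIR replicate 1, 2 or 3 or HCT116 NIR replicate 2 or 3 (adjusted p 0.0566 to 0.218), and under DESeq2 (adjusted p = 0.0704).

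All 10 members were thus called between the NIR lines, 5 higher and 5 lower in HCT116, where 74.8% of all tested genes were called, 38.7% higher and 36.1% lower. With upper-quartile scaling 62.4% of all calls were higher in HCT116, against 51.8% with TMM. After irradiation the directions of the 10 were the same and all were called again, against 74.9% of all tested genes, 38.1% higher and 36.8% lower. The log2 fold change of HCT116 over MCF10A was then -2.45 for EGFR, 0.24 for ERBB2 and 1.65 for ERBB3. Among the ligands it was -1.79 for AREG, 1.25 for EREG, -2.35 for HBEGF, -0.60 for TGFA, -6.96 for EPGN, 0.58 for BTC and 2.57 for EGF. With more than 7 in 10 tested genes called, being called does not set the members apart.

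**Figure D1:**
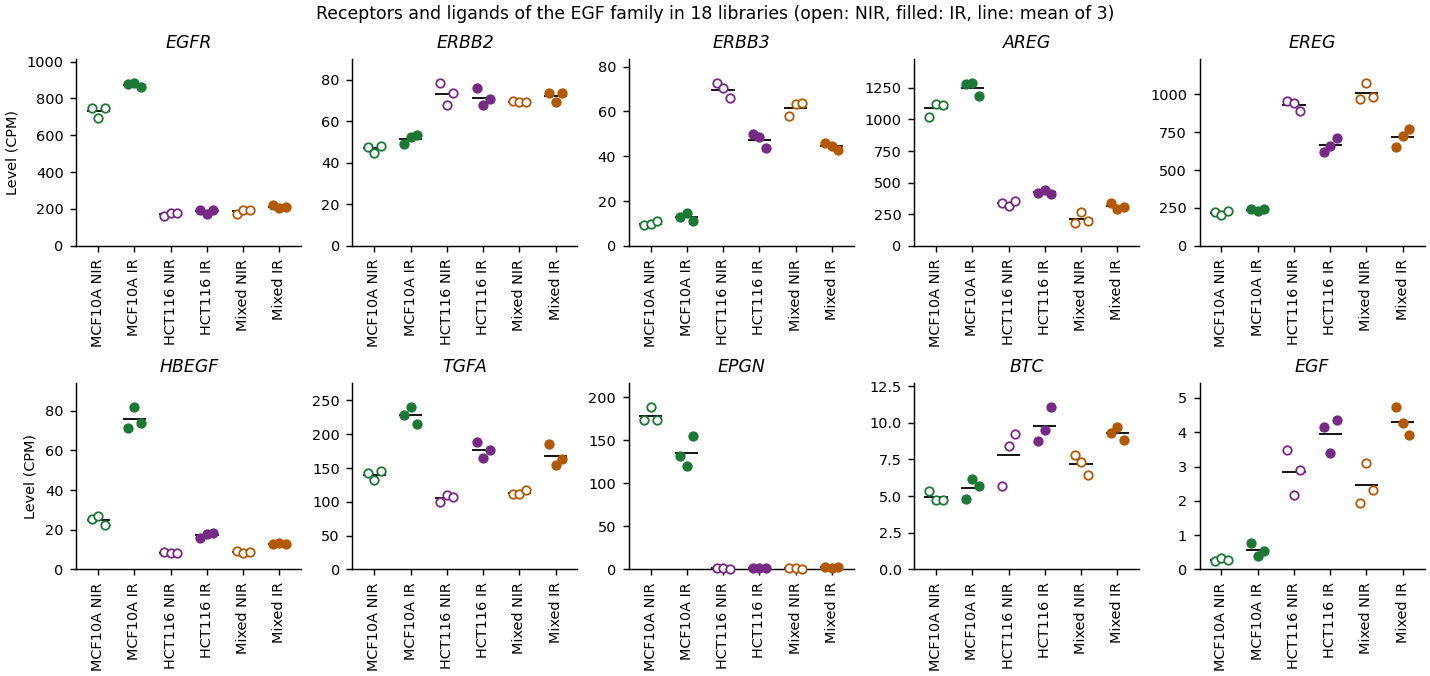
Level of each member in CPM (y axis, linear, from 0, with a scale of its own in each panel) in the 3 libraries of each of the 6 groups (x axis). Open points are NIR, filled points are IR and the black line is the mean of 3. EGFR, AREG, HBEGF and EPGN stand highest in MCF10A, and the mixed libraries lie near HCT116 for most members but below it for AREG.

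After irradiation HBEGF and TGFA rose in MCF10A and in HCT116, and AREG rose in both by smaller amounts. ERBB3 and EREG rose slightly in MCF10A but fell in HCT116, and EPGN fell in MCF10A. In MCF10A, 7 of 10 members were called, 6 higher and 1 lower, where 55.4% of all tested genes were called, 26.2% higher and 29.2% lower. Upper-quartile scaling put 57.5% of these calls higher, against 47.4% with TMM. In HCT116, 5 of 10 were called, 3 higher and 2 lower, where 52.5% of all tested genes were called, 25.3% higher and 27.2% lower. The median log2 fold change of the 10 members was 0.21 in MCF10A and 0.27 in HCT116, and that of all tested genes was 0.00 in MCF10A (15154 genes) and 0.01 in HCT116 (16857 genes).

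Among the receptors, EGFR was at 878.4, 881.1 and 861.3 CPM in MCF10A IR. All of these lay above the NIR libraries (mean 730.2 CPM), and EGFR rose by 0.24 on the log2 scale (SE 0.038, adjusted p = 4.3e-06). In HCT116 IR it was at 196.1, 172.4 and 194.3 CPM, which overlapped the NIR values, with a log2 fold change of 0.12 (95% interval -0.02 to 0.25, adjusted p = 0.137). ERBB2 was not called in either line. Its IR levels were 48.9, 52.3 and 53.5 CPM in MCF10A (log2 fold change 0.12, 95% interval -0.02 to 0.25) and 75.9, 67.7 and 70.5 CPM in HCT116 (-0.03, interval -0.17 to 0.12). Upper-quartile scaling, which moved the median of all genes in MCF10A from 0.00 to 0.09, put ERBB2 in MCF10A at 0.20 with an adjusted p of 0.00908.

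ERBB3 fell in HCT116, from a mean of 69.7 ± 3.26 CPM to 49.8, 48.4 and 43.6 CPM in the IR libraries, all below the NIR range (log2 fold change -0.55, SE 0.073, adjusted p = 9.8e-07). In MCF10A, where ERBB3 is low, the IR libraries were at 13.0, 14.6 and 11.1 CPM against a NIR mean of 9.92 ± 0.924 CPM. The groups did not overlap, and the fitted change was 0.35 (SE 0.124, adjusted p = 0.017). Without MCF10A NIR replicate 1 it was 0.30 (adjusted p = 0.0736) and without MCF10A IR replicate 2 it was 0.25 (adjusted p = 0.133), so this call rested on single libraries.

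In both monocultures HBEGF had the largest fitted change of the members after irradiation. In MCF10A IR it was at 71.2, 81.8 and 73.9 CPM, 3.04-fold the NIR mean of 24.9 ± 2.23 CPM (log2 fold change 1.58, SE 0.074, adjusted p = 2.2e-16). The HCT116 IR libraries were at 16.0, 17.9 and 18.5 CPM, 2.08-fold the NIR mean of 8.40 ± 0.190 CPM (log2 fold change 1.06, SE 0.117, adjusted p = 6.6e-08). In both lines every IR library lay above every NIR library. TGFA was at 228.6, 240.2 and 215.5 CPM in MCF10A IR, above its NIR mean of 140.3 ± 6.40 CPM (log2 fold change 0.68, SE 0.048, adjusted p = 1.2e-12). In HCT116 IR it was at 188.2, 164.3 and 176.7 CPM, above its NIR mean of 105.4 ± 5.63 CPM (log2 fold change 0.75, SE 0.065, adjusted p = 1.2e-09). Again no NIR library reached the IR range.

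AREG, the most abundant ligand transcript in MCF10A, was at 1278, 1284 and 1186 CPM in MCF10A IR and at 420.2, 441.4 and 411.1 CPM in HCT116 IR. All IR libraries lay above the NIR libraries of the same line. AREG rose by 0.34 on the log2 scale in HCT116 (SE 0.060, adjusted p = 4.4e-05) and by 0.18 in MCF10A (SE 0.042, adjusted p = 0.00057). With the spread taken over all 18 libraries the MCF10A change was 0.17 with an adjusted p of 0.113. EREG fell in HCT116, from 930.2 ± 34.8 CPM to 619.9, 657.3 and 715.4 CPM, all below the NIR range (log2 fold change -0.48, SE 0.057, adjusted p = 2.3e-07). In MCF10A IR it was at 245.7, 228.2 and 240.9 CPM, just above the NIR range, with a log2 fold change of 0.11 (SE 0.045, adjusted p = 0.035). That call was lost without MCF10A NIR replicate 2 (0.08, adjusted p = 0.151), MCF10A IR replicate 1 (0.09, adjusted p = 0.155) or MCF10A IR replicate 3 (0.10, adjusted p = 0.107). Without the low-count filter and with all 18 libraries it was lost as well (adjusted p 0.0794 and 0.137).

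EPGN fell in MCF10A, from 178.8 ± 8.78 CPM to 132.1, 120.0 and 155.7 CPM (log2 fold change -0.42, SE 0.063, adjusted p = 2.1e-06), with no overlap between the groups. In HCT116 IR it was at 1.19, 1.30 and 1.36 CPM, from 35 to 53 counts per library, with a wide interval of -0.55 to 0.97 on the log2 scale (adjusted p = 0.66). BTC and EGF were not called in either line. BTC was at 4.78, 6.16 and 5.70 CPM in MCF10A IR (log2 fold change 0.15, interval -0.20 to 0.49) and at 8.74, 9.48 and 11.1 CPM in HCT116 IR (0.34, interval -0.01 to 0.68). Without HCT116 NIR replicate 3 the BTC change in HCT116 was 0.48 with an adjusted p of 0.0214. EGF was at 0.77, 0.40 and 0.53 CPM in MCF10A IR, from 11 to 21 counts per library (log2 fold change 0.97, interval -0.17 to 2.11), and with all 18 libraries its adjusted p was 0.0465. In HCT116 IR it was at 4.14, 3.38 and 4.35 CPM (0.47, interval 0.00 to 0.95), and without HCT116 NIR replicate 1 the change was 0.64 with an adjusted p of 0.0398.

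Other levels moved with irradiation in the same libraries. The summed basal mammary genes were at 871 to 1016 CPM in HCT116 NIR and at 1561 to 1781 CPM in HCT116 IR. Most of this sum was ITGB4 (means 477.0 and 978.5 CPM), CAV1 (285.6 and 372.4) and CDH3 (196.3 and 274.4). All 8 tested genes of the list were called higher, beside 25.3% of all tested genes. KRT5, KRT14, KRT17 and KRT6A had means of at most 1.69 CPM in HCT116 IR, and TP63 and TGFBI had no counts in HCT116 NIR. In MCF10A the summed genes went from 10058 to 10974 CPM up to 13429 to 13736 CPM, with 7 called higher and 1 lower of 10. Of all tested genes, 26.2% were called higher and 29.2% lower there. The share of mitochondrially encoded counts in HCT116 was 8.42% to 8.75% in NIR and 11.5% to 12.3% in IR. In MCF10A it was 5.10% to 5.32% in NIR and 6.06% to 6.35% in IR, and in mixed cultures 8.37% to 8.73% and 12.0% to 12.7%. Their part in the changes of the members was not tested.

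**Figure D2:**
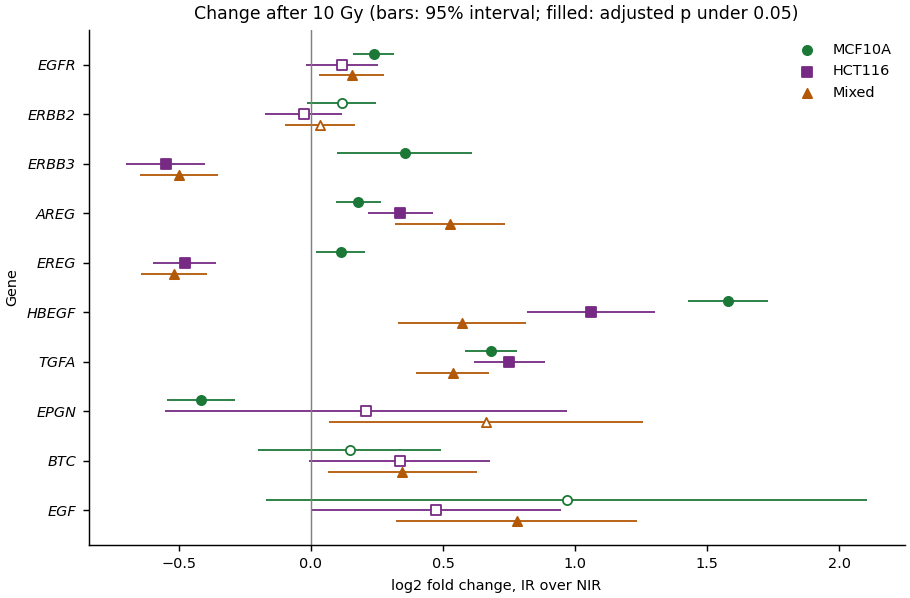
Fitted log2 fold change of IR over NIR (x axis) for each member (y axis) in MCF10A (circles), HCT116 (squares) and mixed cultures (triangles), with 95% intervals as bars and filled symbols where the adjusted p was under 0.05. HBEGF and TGFA lie to the right of 0 in all 3 kinds of culture, while ERBB3 and EREG lie to the left of 0 in HCT116 and mixed cultures only.

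Whether the lines responded differently was tested as an interaction over the 12 monoculture libraries. ERBB3 and EREG, the members that moved in opposite directions, differed most. For ERBB3 the response of HCT116 minus that of MCF10A was -0.98 on the log2 scale (SE 0.135, adjusted p = 2.3e-06), and for EREG it was -0.67 (SE 0.073, adjusted p = 6.5e-08). HBEGF rose in both lines but less in HCT116, by -0.60 (SE 0.128, adjusted p = 0.00055). EGFR was called at -0.20 (SE 0.078, adjusted p = 0.048). In all, 4 members were called lower and 0 higher, where 37.3% of all tested genes were called, 15.4% higher and 21.9% lower. These differences come from 1 joint fit with its own scaling, so they are not the plain differences of the responses given above. The median difference of all genes was -0.10 in this fit and 0.01 with any 1 MCF10A IR replicate left out. Over the alternatives ERBB3 ranged from -1.05 to -0.78, EREG from -0.72 to -0.55 and HBEGF from -0.66 to -0.43, all called.

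The EGFR call was fragile. It was kept without HCT116 NIR replicate 1, HCT116 IR replicate 1 or HCT116 IR replicate 3, and lost without any other of the 12 libraries, down to -0.03 (adjusted p = 0.791) without HCT116 IR replicate 2. It was also lost with DESeq2 and its size factors and without the mitochondrial and the 10 most abundant genes (-0.10, adjusted p = 0.353). This last choice moved the median difference of all genes from -0.10 to -0.01, and the share of higher calls from 41.3% to 52.5%. In both fits EGFR, at -0.20 in the main fit, lay below that median. The median over the 10 members was -0.21 in the main fit, beside -0.10 for all genes. The responses of TGFA (-0.01, interval -0.18 to 0.17) and AREG (0.08, interval -0.07 to 0.24) were not called as different. Without the low-count filter the AREG response was called higher in HCT116 (0.18, adjusted p = 0.0224). ERBB2 stood at -0.22 (adjusted p = 0.074), and its response was called lower in HCT116 with upper-quartile scaling (-0.24, adjusted p = 0.0492). The same call came without HCT116 NIR replicate 2 (-0.28, adjusted p = 0.0305) and without HCT116 IR replicate 1 (-0.27, adjusted p = 0.0339). BTC was at 0.11 and EGF at -0.57 (interval -1.59 to 0.45). EPGN was at 0.54 (adjusted p = 0.065), a value that rests on its few counts in HCT116. The EPGN response was called higher in HCT116 without any 1 of the MCF10A IR replicates (0.56 to 0.75, adjusted p 0.00331 to 0.0402). It was also called without the mitochondrial and the 10 most abundant genes (0.64, adjusted p = 0.027). The same held without the low-count filter (adjusted p = 0.00782), with DESeq2 (0.0365) and with all 18 libraries fitted together (0.0258).

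Mixed cultures were compared with HCT116 monocultures, the line that made up most of their RNA. AREG was lower in the mixed cultures with and without irradiation. HBEGF was lower after irradiation and not called without it, and the difference between these 2 comparisons was itself not called (adjusted p = 0.168). Without irradiation AREG was at 177.4, 266.6 and 196.4 CPM in the mixed libraries, all below the HCT116 range of 317.3 to 356.7 CPM (fitted log2 fold change -0.64, SE 0.105, adjusted p = 0.0018). After irradiation it was at 338.6, 293.5 and 308.4 CPM against 411.1 to 441.4 CPM (fitted log2 fold change -0.45, SE 0.054, adjusted p = 6.4e-07), again with no overlap. HBEGF was at 9.12, 8.05 and 8.67 CPM in mixed NIR, within reach of the HCT116 range of 8.27 to 8.62 CPM (fitted log2 fold change 0.05, interval -0.23 to 0.33). In mixed IR it was at 13.1, 13.1 and 12.9 CPM, all below the HCT116 range of 16.0 to 18.5 CPM (fitted log2 fold change -0.43, SE 0.105, adjusted p = 0.0078). AREG was the 1 member of 10 called without irradiation, where 2.04% of all tested genes were called, 0.887% higher and 1.15% lower. AREG and HBEGF, with EGFR, were the 3 called after irradiation, where 8.56% were called, 5.08% higher and 3.48% lower.

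The EGFR difference was small. EGFR was at 174.5, 193.7 and 194.8 CPM in mixed NIR, overlapping HCT116 NIR, and at 220.7, 207.7 and 209.6 CPM in mixed IR, above the HCT116 IR range of 172.4 to 196.1 CPM (fitted log2 fold change 0.17, SE 0.055, adjusted p = 0.0496). Leaving out HCT116 IR replicate 2 or 3 or any of the mixed IR replicates ended this call (0.12 to 0.19, adjusted p 0.0778 to 0.277), as did DESeq2's size factors (adjusted p = 0.0525). EPGN was at 1.65, 1.56 and 1.06 CPM in mixed NIR and at 2.38, 2.06 and 2.40 CPM in mixed IR, the latter above HCT116 IR (log2 fold change 0.82, adjusted p = 0.077, and 0.00163 with all 18 libraries). From the RNA shares and the monoculture levels, 1.91 CPM of EPGN were expected in mixed NIR, 0.799 CPM of them from MCF10A. In mixed IR 2.95 CPM of EPGN were expected, 1.69 CPM of them from MCF10A. For EGFR the expected levels were 176.2 CPM in mixed NIR, 3.26 CPM of them from MCF10A, and 196.1 CPM in mixed IR, 10.8 CPM of them from MCF10A. ERBB2, ERBB3, EREG, TGFA, BTC and EGF were not called in either comparison, with log2 fold changes from -0.20 (EGF, NIR) to 0.13 (EREG, NIR).

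Levels expected in the mixed cultures were built from the HCT116 and MCF10A means and the RNA shares above. The measured AREG level was 0.627 of the expected 340.6 CPM in NIR and 0.722 of the expected 434.5 CPM in IR. Because MCF10A had more AREG than HCT116, the admixture raised the expected level. For HBEGF the ratio was 1.02 in NIR and 0.717 in IR, where 18.2 CPM were expected. The other 8 members lay between 0.745 (EPGN, NIR) and 1.10 (EGF, IR) times the expected level. AREG varied more among the mixed NIR libraries (SD 47.0 CPM) than among HCT116 NIR libraries (SD 19.7 CPM), and without a single library its difference ranged from -0.84 to -0.53 in NIR and from -0.51 to -0.40 in IR. As it is not stated which medium the mixed cultures had, medium and co-culture cannot be told apart here.

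**Figure D3:**
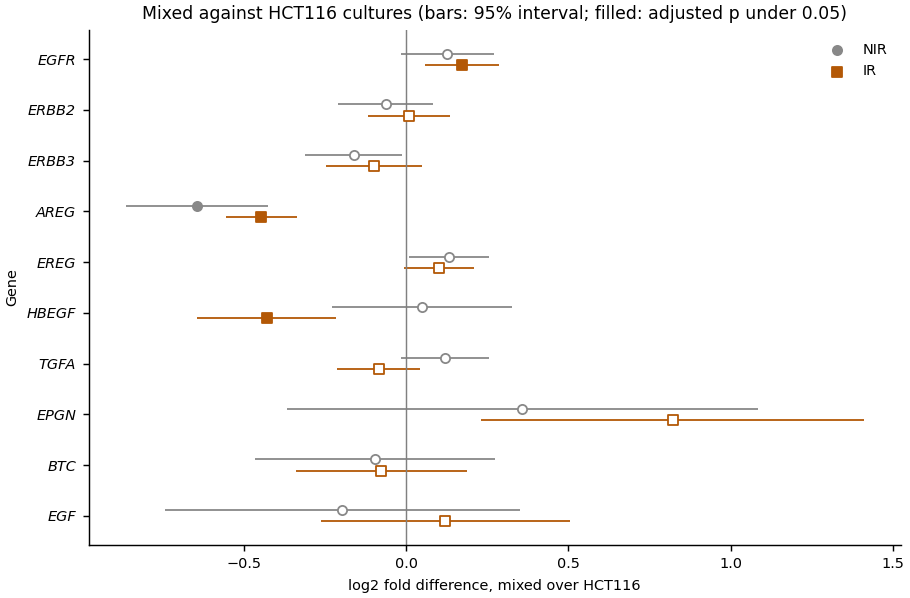
Fitted log2 fold difference of mixed over HCT116 cultures (x axis) for each member (y axis), NIR as grey circles and IR as orange squares, with 95% intervals as bars and filled symbols where the adjusted p was under 0.05. AREG lies below 0 in both, at -0.64 and -0.45, and HBEGF at -0.43 in IR and 0.05 in NIR.

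Irradiation of the mixed cultures moved 8 of 10 members, 6 higher and 2 lower, where 49.4% of all tested genes were called, 24.0% higher and 25.4% lower. AREG, at the levels given above, rose by 0.53 on the log2 scale (SE 0.099, adjusted p = 0.00015), and HBEGF rose by 0.57 (SE 0.117, adjusted p = 0.00034). TGFA went from 111.8, 111.3 and 116.9 CPM to 184.8, 154.0 and 163.5 CPM (log2 fold change 0.54, SE 0.066, adjusted p = 7.3e-07). No NIR library of these 3 ligands reached the IR range. EREG fell from 972.5, 1072 and 981 CPM to 654.4, 727.0 and 770.2 CPM (log2 fold change -0.52, SE 0.060, adjusted p = 3.1e-07). ERBB3 fell from 57.8, 63.3 and 63.8 CPM to 45.9, 44.6 and 42.9 CPM (log2 fold change -0.50, SE 0.071, adjusted p = 5.1e-06), and both had separate groups.

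Of the 3 least abundant ligands of the mixed cultures, EGF and BTC were called higher after irradiation and EPGN was not. EGF rose from 1.93, 3.11 and 2.31 CPM to 4.73, 4.28 and 3.92 CPM (log2 fold change 0.78, SE 0.219, adjusted p = 0.0055). BTC went from 7.80, 7.32 and 6.45 CPM to 9.30, 9.73 and 8.83 CPM (log2 fold change 0.35, SE 0.136, adjusted p = 0.040). The BTC call held without mixed NIR replicate 1 and was lost without any other single library (adjusted p 0.053 to 0.154), without the low-count filter (0.0814) and under DESeq2 (0.0757). EGFR had a log2 fold change of 0.15 (SE 0.059, adjusted p = 0.036), lost without mixed NIR replicate 1 (0.09, adjusted p = 0.233), without any 1 of the mixed IR replicates (0.12 to 0.16, adjusted p 0.0705 to 0.155) and without the filter (adjusted p = 0.0782). EPGN was not called (0.66, adjusted p = 0.061, from 38 to 87 counts per library), but passed with upper-quartile scaling, halved counts or all 18 libraries (adjusted p 0.0486, 0.048 and 0.00116). ERBB2, at 69.9, 69.0 and 69.0 CPM in NIR and 73.7, 69.4 and 73.7 CPM in IR, stood at 0.03 (interval -0.10 to 0.16).

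No member's response differed between mixed and HCT116 cultures by the interaction test, where 0.830% of all tested genes were called. The edgeR test and DESeq2 both called 0 of 10, and 2 members had an unadjusted p under 0.05 in edgeR. These were HBEGF, with a response lower by -0.48 in mixed cultures (interval -0.80 to -0.16, adjusted p = 0.168), and TGFA, with -0.20 (interval -0.40 to 0.00, adjusted p = 0.39). For EREG the interval was -0.20 to 0.14 and for ERBB3 -0.14 to 0.27.

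Levels of different genes can be set side by side only per length. Per kb of merged exons, EGFR was the highest of the 3 receptors in all 6 groups, with 58.3 ± 2.47 CPM per kb in MCF10A NIR and 13.9 ± 0.904 in HCT116 NIR. ERBB2 and ERBB3 stood at 4.55 and 1.10 CPM per kb in MCF10A NIR and at 7.08 and 7.71 in HCT116 NIR, where their order turned with the length of the longest coding transcript, at 15.3 and 11.8. Among the ligands, AREG ranked first in every group but mixed NIR, where EREG did, under both lengths. AREG made up 79.0% of the summed ligand transcripts in MCF10A NIR and 80.0% in MCF10A IR. EPGN came second there, with 11.8% and 7.91%. In HCT116, AREG and EREG together made up most of the sum, with AREG at 51.8% in NIR and 61.3% in IR and EREG at 41.2% and 27.7%. In the mixed cultures EREG led in NIR with 52.6% against 38.6% for AREG, and AREG led in IR with 52.99% against 34.9%. TGFA held 3.39% to 9.40% over the 6 groups, and EGF was last in all of them. These shares are a description and were not tested.

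**Figure D4:**
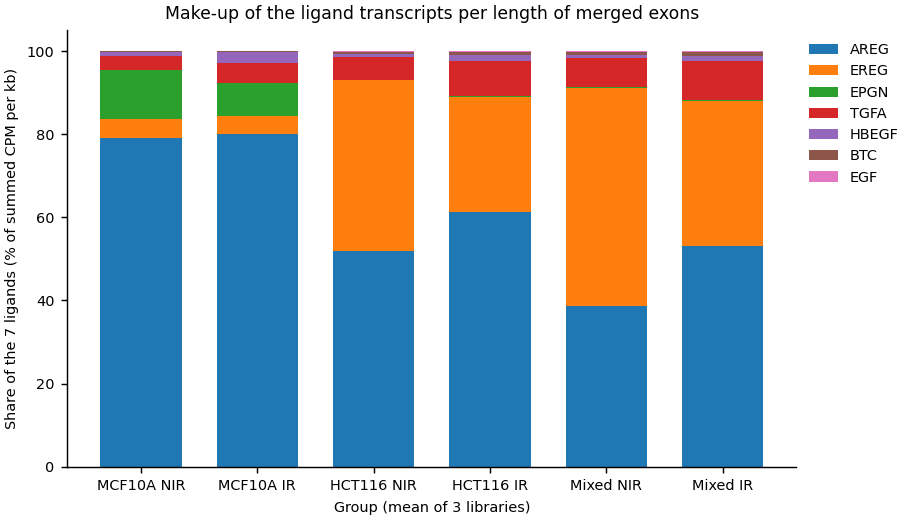
Share of each ligand in the summed CPM per kb of merged exons of the 7 ligands (y axis, percent, from 0), from the means of 3 libraries in each group (x axis). AREG fills 79.0% and 80.0% in MCF10A, while AREG and EREG divide most of the sum in HCT116 and mixed cultures, with EREG smaller in IR than in NIR.

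Across the 6 groups, the order of levels followed the line for most members. EGFR ran from MCF10A IR and MCF10A NIR down to mixed IR, mixed NIR, HCT116 IR and HCT116 NIR, with the last 3 overlapping their neighbours. For ERBB3, HCT116 NIR was highest, then mixed NIR, HCT116 IR and mixed IR, of which the last 2 overlapped, then MCF10A IR and MCF10A NIR. AREG was lowest in mixed NIR, and mixed IR overlapped HCT116 NIR above it. For EREG, mixed NIR and HCT116 NIR led without overlap, mixed IR and HCT116 IR overlapped, and both MCF10A groups were lowest. TGFA was ordered by treatment, with the 3 IR groups above the 3 NIR groups and, among neighbours, an overlap between HCT116 IR and mixed IR only. HBEGF was highest in MCF10A IR, then MCF10A NIR, HCT116 IR and mixed IR, with mixed NIR and HCT116 NIR overlapping at the bottom. EPGN ran from MCF10A NIR to MCF10A IR and mixed IR, and the other 3 groups overlapped. For ERBB2 and EGF the 4 HCT116 and mixed groups overlapped their neighbours and stood above both MCF10A groups. The BTC means of these 4 groups were above those of MCF10A too, but 1 HCT116 NIR library lay within the MCF10A range.

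Other genes of the pathway, 31 in a list of neuregulins and ERBB4, shedding factors, adaptors, receptor attenuators and genes switched on by ERK, were read beside the members. The members and this list were chosen with earlier results of these data known, so counts describe these genes only. After irradiation 20 of 29 tested pathway genes were called in MCF10A, 16 higher and 4 lower, with a median log2 fold change of 0.21, where 55.4% of all tested genes were called. In HCT116, 17 of 30 were called, 6 higher and 11 lower, with a median of -0.10, beside 52.5% of all tested genes. In mixed cultures 16 of 30 were called, 7 higher and 9 lower, with a median of -0.12, beside 49.4% of all tested genes. The medians of all tested genes were 0.00, 0.01 and 0.01.

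NRG1, the gene for neuregulin 1, which binds ERBB3 and ERBB4, rose in all 3 kinds of culture after irradiation, by 1.29 in MCF10A, 2.34 in HCT116 and 2.05 in mixed cultures on the log2 scale. MCF10A had 19.7 ± 2.30 CPM in NIR and 49.0 ± 1.12 CPM in IR, and HCT116 had 1.59 ± 0.356 and 7.99 ± 2.04 CPM (SD, n = 3). The rise in HCT116 was 0.97 larger by the interaction test (adjusted p = 0.0012). Of the shedding factors, which control release of the ligands, 4 of 5 were called higher in MCF10A and 2 of 5 in HCT116, with none lower, where 26.2% and 25.3% of all tested genes were called higher. They included FRMD8, which stabilises the shedding complex of ADAM17, with 0.72 in MCF10A, 1.35 in HCT116 and 1.28 in mixed cultures. SHC1, an adaptor of the activated receptors, rose by 0.64, 1.01 and 1.11 in the same order.

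Of the 10 genes of ERK output, 8 were called in each line after irradiation, 5 higher and 3 lower in MCF10A and 1 higher and 7 lower in HCT116. Of all tested genes, 26.2% were higher and 29.2% lower in MCF10A, and 25.3% higher and 27.2% lower in HCT116. In the interaction test 6 responses were called lower in HCT116 and 0 higher, where 21.9% of all tested genes were called lower and 15.4% higher. Among the 6 were PHLDA1 (-1.10), SPRY4 (-1.01), DUSP5 (-0.998) and DUSP6 (-0.992), of which the last 2 encode phosphatases that act on ERK. Over the whole list this test called 17 of 30 responses, 3 higher and 14 lower in HCT116. Among them NRG2, another neuregulin, was at -1.69 (adjusted p = 0.043). The test called 37.3% of all tested genes. The share of higher calls among them was 41.3%, or 52.5% without the mitochondrial and the 10 most abundant genes. ERRFI1, which encodes an inhibitor of EGFR, was at 1567 ± 119 CPM in HCT116 NIR and 115.6 ± 6.20 CPM in MCF10A NIR (log2 fold change 3.56, adjusted p = 4.1e-18). Between the NIR lines 24 of 30 pathway genes were called, 11 higher and 13 lower in HCT116, where 74.8% of all tested genes were called, 38.7% higher and 36.1% lower. NRG1 (-3.84), SHC1 (-2.20), LRIG3 (-2.10), SPRY2 (-1.67) and NRG4 (-1.03) were lower there, and DUSP5 (2.41) was higher. ERBB4 was also called higher in HCT116 NIR, with 16 to 30 counts per library against 1 to 3 in MCF10A NIR, too few for a fold to be given. In mixed against HCT116 cultures without irradiation, 4 of 30 pathway genes were called, all lower, beside AREG. Of all tested genes, 2.04% were called there, 0.887% higher and 1.15% lower. The 4 pathway genes were DUSP5 (-0.86), ERRFI1 (-0.48), DUSP6 (-0.47) and SPRY4 (-0.39), named after their values were seen. After irradiation 3 of 30 were called, near the 8.56% of all tested genes called, 5.08% higher and 3.48% lower. Of the 3, DUSP5 (-0.49) and NRG1 (-0.66) were lower and LRIG3 (0.40) was higher.

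As a description, the genes whose log2 levels ran most like each member over the 18 libraries were sought among 10913 genes with a group mean of at least 10 CPM. Pearson's r was 0.997 for EGFR with ZNF605, 0.986 for ERBB2 with THEMIS2 and 0.994 for ERBB3 with GCA. Among the ligands it was 0.986 for AREG with CSTA, 0.997 for EREG with DPYSL5, 0.988 for HBEGF with ANXA2, 0.990 for TGFA with ZBTB4 and 0.999 for EPGN with DMD. These 18 libraries form 3 kinds of culture with 2 treatments and are not independent points.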

How the data were processed

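Poly(A)-selected RNA was sequenced in 18 libraries with a stranded kit, per the labels' protocols and the series text. The authors deposited 1 table of raw counts per gene symbol for each library, without normalization. Per the submitters' processing notes, fastp, STAR, featureCounts and GRCh38 were used, while versions, annotation and the strand setting are not given in the sources used here. Values from 1 to 10 were even in 68.3% of cases, so counts may be of mates rather than of fragments, and a fit with counts halved was tried. The 10 members and all gene lists were chosen with earlier results of these data known.

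Each comparison used the libraries of the compared groups alone, with edgeR 4.0.16 in R 4.3.3, TMM scaling, the filterByExpr filter and the 2-sided quasi-likelihood test. Adjusted p-values (Benjamini-Hochberg) cover all tested genes, and a call is an adjusted p under 0.05. SE is the standard error of a log2 fold change, and intervals are 95%. The p-values measure the spread between 3 cultures per group. CPM is counts times 1000000 over the library total. All members were named by rule. Of the pathway list, genes called with an absolute log2 fold change of at least 1 were named, up to 3 per sublist, and others named were chosen after their values were seen. The share of MCF10A RNA came from genes of at least 20 CPM in 1 line and in no library of the other line at 1 CPM or more. Alternatives were DESeq2 1.42.0, its size factors, upper-quartile scaling, leaving out mitochondrial and the 10 most abundant genes, no filter, halved counts, all 18 libraries, a replicate block and leaving out each library. A gene planned as a check of a label is not reported here. The edgeR script was tested on simulated data first. Lengths and positions came from GENCODE v29, and promoters from RefSeq on GRCh38.p14.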

Additional observations from a re-analysis of the deposited data

Results flagged for a closer look

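For 4 members the responses of the lines to irradiation differed by the interaction test in edgeR, with the response of HCT116 minus that of MCF10A on the log2 scale. The difference was -0.98 for ERBB3, whose level went from 69.7 to 47.3 CPM in HCT116 and from 9.92 to 12.9 CPM in MCF10A. For EREG it was -0.67, with 930.2 to 664.2 CPM in HCT116 and 217.2 to 238.3 CPM in MCF10A. HBEGF had -0.60, with a rise in both lines. EGFR had -0.20, where the median of all genes in this fit was -0.10, and most alternatives ended its call.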

How the results depend on the processing

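Of 719 member values under alternatives other than leaving out a library, 684 kept their direction and their side of the threshold, 16 lost a call, 14 gained a call and 5 changed sign. With a library left out, 590 of 660 did so. The values that changed sign all belonged to members that were not called. The TGFA response difference between the lines (-0.01) was 0.0182 with DESeq2 size factors, 0.0937 without mitochondrial and the 10 most abundant genes, 0.0940 without the filter, 0.0194 under DESeq2 and 0.0912 with all 18 libraries. With a library left out it ranged from -0.0592 to 0.147, and that of BTC from -0.0821 to 0.299. ERBB2 in irradiated HCT116 ranged from -0.0836 to 0.0124. Between mixed and HCT116 cultures, BTC ranged from -0.291 to 0.0573 in NIR and from -0.148 to 0.0122 in IR, and ERBB2 from -0.0279 to 0.0572 in IR. The response difference between mixed and HCT116 cultures ranged from -0.035 to 0.0813 for EGFR, -0.0193 to 0.0814 for ERBB3, -0.103 to 0.0025 for EREG and -0.157 to 0.188 for BTC. The cause was not tested. The share of MCF10A RNA in mixed libraries was 0.297% in NIR and 1.04% in IR with a stricter choice of line-specific genes.

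Leaving out each library gave 6 to 7 called members in irradiated MCF10A, 5 to 6 in HCT116 and 6 to 7 in mixed cultures. The main fits called 55.4%, 52.5% and 49.4% of all tested genes there. Between the lines, leaving out a library gave 9 to 10 in NIR and 10 in IR, and 3 to 5 for the response difference. Those main fits called 74.8%, 74.9% and 37.3% of all tested genes. For mixed against HCT116 the count was 1 in NIR, 2 to 3 in IR and 0 for the response difference, beside 2.04%, 8.56% and 0.830%. Correlations of residuals between same-numbered libraries were low, from -0.043 to 0.109, and the main fits did not pair libraries by number. The highest mean correlation, 0.057, was between HCT116 NIR and mixed NIR, and whether these groups were paired was not settled. With the replicate number as a block, EGFR lost its calls in irradiated mixed cultures (0.16, adjusted p = 0.058) and in the response difference between the lines (-0.20, adjusted p = 0.0584), and BTC lost its call between the NIR lines (0.43, adjusted p = 0.0945). BTC gained a call in irradiated HCT116 (0.36, adjusted p = 0.0498), and so did EREG in mixed against HCT116 IR (0.10, adjusted p = 0.039). All genes called in mixed against HCT116 numbered 335 in NIR and 1467 in IR. The block gave 716 and 2220, and for NIR no filter gave 671, DESeq2 526 and all 18 libraries 768. The response difference between mixed and HCT116 cultures had 150 calls, 336 without the filter and 298 under DESeq2. Between the NIR lines, upper-quartile scaling put the median of all genes at 0.25 instead of 0.05, and without mitochondrial and the 10 most abundant genes 52.5% of calls in the response difference between the lines were higher against 41.3%.

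EPGN in HCT116 and mixed cultures and EGF in MCF10A rest on 8 to 87 counts per library, so that small changes were not detectable at this depth. RNA counts say nothing of shedding, receptor protein or signalling. With 3 libraries per group and no stated batch, differences between cultures grown at other times were not tested.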
